A study of Mus musculus with 30 samples.

Results

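Of the 20764 genes counted in mouse hearts and the 54532 counted in HL-1 cells, 41 were taken up here: the regulators, enzymes and carriers that remove peroxides and superoxide, make and recycle glutathione, and supply the NADPH that these reactions spend. The members were listed by name from their known functions and matched by symbol. The rule uses no measured value, but the list was drawn up with earlier results of these data in view. All 41 were found in both experiments, and all 41 passed the filter on low counts and were tested. By role they comprised 3 regulators and reference genes (Nfe2l2, Keap1, Nqo1), 4 genes of glutathione synthesis and recycling (Gclc, Gclm, Gss, Gsr), 4 thioredoxins and their reductases (Txn1, Txn2, Txnrd1, Txnrd2), 7 peroxiredoxins and sulfiredoxin (Prdx1 to Prdx6, Srxn1), 3 glutathione peroxidases (Gpx1, Gpx3, Gpx4), 4 superoxide dismutases and catalase (Sod1, Sod2, Sod3, Cat), 5 glutathione transferases (Gsta4, Gstm1, Gstm5, Gstp1, Mgst1), 9 genes of NADPH supply (G6pdx, Pgd, Me1, Me2, Idh1, Idh2, Nnt, Tkt, Taldo1) and 2 metallothioneins (Mt1, Mt2).

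The study asked how aging and the supply of NAD+ shape day and night gene expression in the heart, and used RNA-seq of whole hearts and of a cardiac cell line. The hearts, 18 in all, came from female mice labelled C57BL6, kept under a light and dark cycle. The methods describe their stock as mixed C57BL/6J and C57BL/6N. Young mice of 2 months and old mice of 12 months drank water without supplement (labelled MQ, here H2O), and further old mice drank water with nicotinamide riboside (NR, a precursor of NAD+) at 3 g/l from 2 months of age. Each of these was sampled at ZT10, in the light phase, and at ZT22, in the dark phase, with 3 mice in each of the 6 groups, so there was no young group on NR. The 12 HL-1 libraries, 3 cultures per group, were labelled Ctrl (untreated), FK (FK866, an inhibitor of NAMPT, the enzyme that salvages nicotinamide into NAD+), FK_NR (FK866 with NR) and FK_NR_Ex (FK866, NR and Ex527, an inhibitor of the deacetylase SIRT1). HL-1 is an established line derived from an atrial tumour of a female C57BL/6J mouse, and all 12 cultures are of this 1 line.

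NRF2, encoded by Nfe2l2, is the transcription factor that switches on many of these genes when oxidants or electrophiles modify KEAP1, the adaptor that otherwise marks it for degradation. Peroxiredoxins and glutathione peroxidases reduce peroxides with electrons from thioredoxin and glutathione, and the reductases that recharge both draw on NADPH, which the pentose phosphate pathway, malic enzymes, isocitrate dehydrogenases and the mitochondrial transhydrogenase regenerate from NADP. NADP is made from NAD+ by NAD kinases, and heart muscle, packed with mitochondria, is a steady source of superoxide.

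The antioxidant response element, bound by NRF2 with small MAF proteins, has a core of the letters TGACNNNGC or, in a related form, TGAGNNNGC. The promoter windows below, from RefSeq on GRCm38.p6, belong to Nfe2l2 itself and to 3 genes that rose together with FK866 in HL-1 cells (Nqo1, Srxn1 and Txnrd1). Each is written 5′ to 3′ on the gene's strand, runs from upstream of the transcript start into the first transcribed bases, and has every match to either form of the core, on either strand, in capitals.
Nfe2l2, chr2:75704614-75704913, minus strand: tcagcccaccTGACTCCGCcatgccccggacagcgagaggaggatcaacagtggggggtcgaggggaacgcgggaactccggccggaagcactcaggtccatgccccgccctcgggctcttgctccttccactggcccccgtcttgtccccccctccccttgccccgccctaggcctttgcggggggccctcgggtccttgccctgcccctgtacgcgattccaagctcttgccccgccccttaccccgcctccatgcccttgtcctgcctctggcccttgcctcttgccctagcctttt
Nqo1, chr8:107403156-107403455, minus strand: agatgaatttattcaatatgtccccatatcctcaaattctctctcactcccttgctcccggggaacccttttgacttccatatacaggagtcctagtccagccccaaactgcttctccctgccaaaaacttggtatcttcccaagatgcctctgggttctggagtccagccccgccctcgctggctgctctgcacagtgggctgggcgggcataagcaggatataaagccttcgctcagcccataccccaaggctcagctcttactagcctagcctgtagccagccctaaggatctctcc
Srxn1, chr2:152105274-152105573, plus strand: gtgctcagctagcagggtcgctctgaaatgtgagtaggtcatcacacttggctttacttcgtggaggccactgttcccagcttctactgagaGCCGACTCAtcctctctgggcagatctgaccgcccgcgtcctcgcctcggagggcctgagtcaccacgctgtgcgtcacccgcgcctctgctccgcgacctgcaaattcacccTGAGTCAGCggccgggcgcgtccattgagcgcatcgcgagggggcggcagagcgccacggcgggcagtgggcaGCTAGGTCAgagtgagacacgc
Txnrd1, chr10:82858956-82859255, plus strand: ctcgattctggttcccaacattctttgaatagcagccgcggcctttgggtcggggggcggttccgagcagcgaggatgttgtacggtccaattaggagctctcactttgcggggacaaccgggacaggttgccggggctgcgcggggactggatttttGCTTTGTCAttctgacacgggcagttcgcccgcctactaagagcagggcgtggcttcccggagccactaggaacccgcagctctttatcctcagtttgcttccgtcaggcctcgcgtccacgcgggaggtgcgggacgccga
Srxn1 had 3 matches, starting 158 and 45 bases upstream and 28 bases downstream of the transcript start, Nfe2l2 had 1 match starting 240 bases upstream, and Txnrd1 had 1 match starting 92 bases upstream, in 1 of its 3 windows. The window of Nqo1 held no match, which says only that these letters are not in this stretch. Windows were found for 34 of the 41 members, 44 windows in all, and either form of the core was in 38.6% of them against 27.8% of all 32851 windows in the table. The TGACNNNGC form was in 27.3% of member windows and 12.4% of all windows, and the TGAGNNNGC form in 18.2% and 17.6%. The clock-related E-box CACGTG was in 2.27% of member windows, that of Prdx4 alone, and in 7.15% of all windows, and the D-box TTATGTAA was in 0 of the 44 and in 0.938% of all. The list holds known NRF2 targets, so these shares are a description, and a match is a run of letters, not a binding site.

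Library totals ran from 3922137 to 7562215 counts in the hearts and from 21337922 to 35000109 in HL-1 cells, so an HL-1 value rests on several times more reads. The cardiomyocyte markers Myh6, Actc1, Tnni3 and Ttn each stayed under 1 CPM in every HL-1 library, with Actc1 at 0 throughout. Tnnt2 and Ryr2, of the same list, each reached 1 CPM in at least 1 HL-1 library. The summed level of 6 such markers was 0.830 to 4.59 CPM against 7955 to 11470 CPM in the hearts, and 5 atrial markers summed to 0.320 to 1.70 CPM. Fibroblast markers, 6 in all, summed to 2543 to 4142 CPM in the same HL-1 libraries, though Lum, 1 of them, stayed under 1 CPM in every library. The HL-1 cells are therefore described below by their line and not as cardiomyocytes.

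In all 3 heart groups at ZT22, normalized values of most members were highest in the shallowest library. In young hearts it held the highest value of 26 of 41 members, where 35.3% of all genes tested were highest. In old H2O hearts at ZT22, 30 of 41 members were highest in replicate 1, the library with the fewest counts, where 36.6% of all genes tested were highest. In old NR hearts at ZT22 it was 32 of 41 in replicate 1, against 35.3% of all genes. At ZT10 the shallowest library held fewer, with 16 of 41 in young, 7 in old H2O and 12 in old NR hearts. In HL-1 cells, Ctrl replicate 3, which was not the shallowest, held 32 of 41, where 36.3% of all genes were highest. Idh2, the mitochondrial isocitrate dehydrogenase, had 2403 counts in the shallowest of the old H2O ZT22 libraries and 2913 in the deepest, a ratio of 1.21, while the library totals differed 1.93 times. For all 41 members the median of that ratio was 1.82, and for all genes tested 2.14. The authors removed duplicate reads before counting, and the part of that step in these values was not tested. A term for library size was therefore added to the heart fits, and calls that changed with it are named.

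Per kilobase of the gene length given with the HL-1 counts, the members spanned a wide range of levels. The order was not the same in the hearts and in HL-1 cells. That length, applied to both, differed from the annotated exonic bases for Me2 (2455 against 7252) and Gstp1 (757 against 1548). The places of Me2 and Gstp1 in the order therefore depend on the length chosen. In hearts the highest medians over 18 libraries were those of Idh2 at 186 normalized CPM per kilobase (lowest 142, highest 247), Prdx3, the mitochondrial peroxiredoxin, at 140.3 (115 to 159), and Cat, which splits hydrogen peroxide in peroxisomes, at 116 (103 to 130.5). The lowest were G6pdx, which makes the first NADPH of the pentose phosphate pathway, at 5.60 (4.33 to 8.05), Gss, glutathione synthetase, at 4.84 (3.69 to 5.56), and Nnt at 1.01 (0.697 to 1.29). The ranges of Idh2 and Prdx3 overlapped, as did those of G6pdx and Gss. In HL-1 cells the highest medians over 12 libraries were those of Txn1, the cytosolic thioredoxin, at 323 FPKM (278 to 416), Prdx1 at 302 (261 to 374) and Gstp1, a glutathione transferase, at 270.1 (230.2 to 395), and their ranges overlapped. Gpx3, the secreted glutathione peroxidase, stood in hearts at 108 normalized CPM per kilobase and had only 5 to 18 counts in HL-1 libraries, a median of 0.205 FPKM. Sod3, the extracellular superoxide dismutase, stood at 17.98 normalized CPM per kilobase in hearts and at 0.426 FPKM in HL-1 cells. The hearts and the cell line were prepared and counted by different protocols, so no test was made between them.

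**Figure D1:**
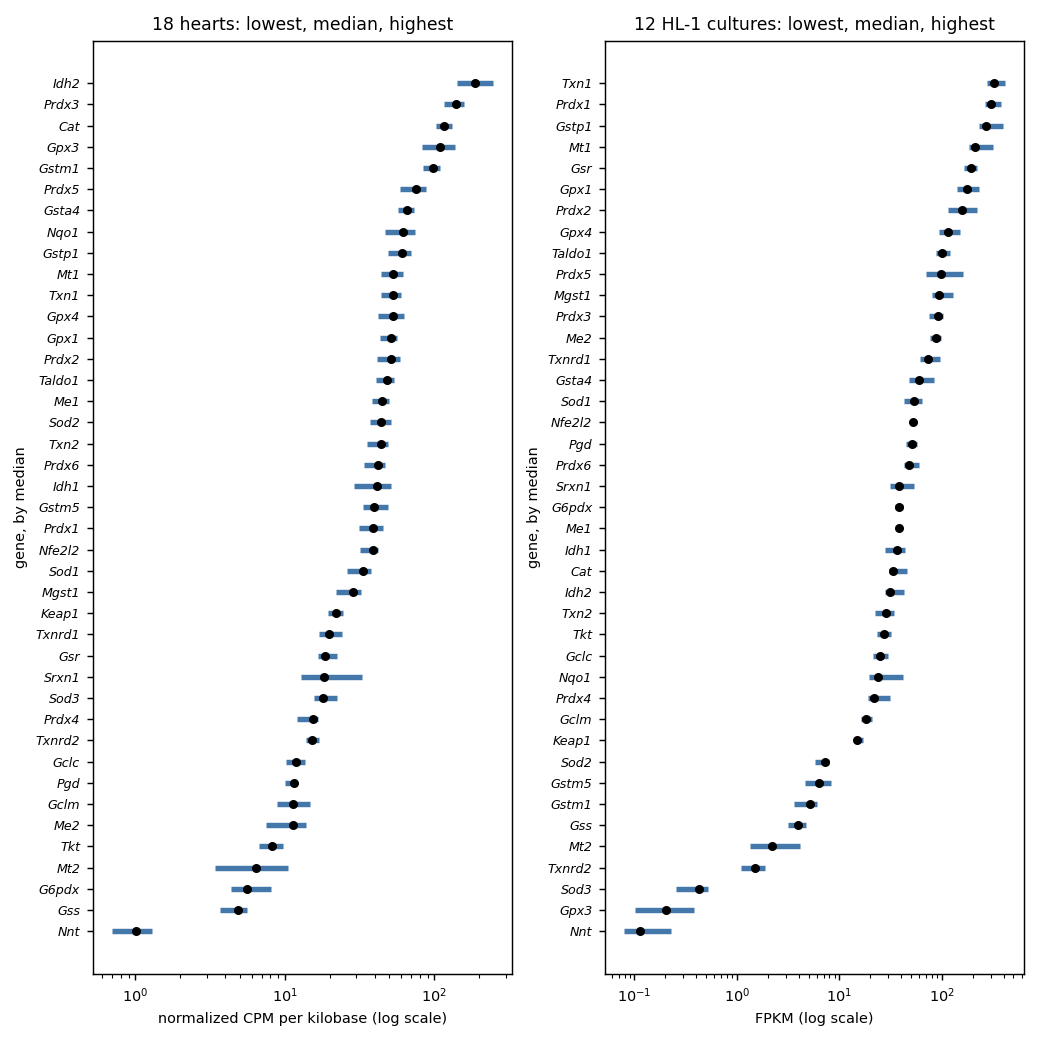
Level of each of the 41 members per kilobase of the gene length given with the HL-1 counts, on log axes: normalized CPM per kilobase in 18 hearts (left) and FPKM in 12 HL-1 cultures (right), each panel sorted by median. Points are medians and bars run from the lowest to the highest library. Idh2 leads in hearts and Txn1 in HL-1 cells, and Nnt is lowest in both.

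Nnt, the transhydrogenase that makes mitochondrial NADPH, could not be read as a gene level in either experiment. The annotation holds 2 overlapping Nnt models on the minus strand at chr13:119335448-119408997 and chr13:119335528-119408952. Of the exonic bases of the model used, 47.45% are shared with the other, and the heart counting dropped reads that overlapped more than 1 gene. The remaining counts were 26 to 69 per heart library and 13 to 41 per HL-1 library. The HL-1 counts held 2 rows for Nnt, and only that of the model used in hearts was read here. As background, the C57BL/6J substrain carries a deletion within this gene, and the hearts came from a mixed stock. Its values are given below with that limit.

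In young hearts, the question was which members differed between the light and the dark phase. Srxn1, which repairs over-oxidized peroxiredoxins, and Txnrd1, the cytosolic thioredoxin reductase, were lower at ZT10, while Idh1, Nqo1, Tkt, Keap1 and Prdx4 were higher at ZT10. With edgeR's quasi-likelihood test at an adjusted p under 0.05, 7 of 41 members were called, or 5 higher and 2 lower, where 14.4% of all 15443 genes tested were called, 6.80% higher and 7.57% lower. Over the members the log2 difference had a median of 0.06, and over all genes of 0.01. The members' share lay close to that of all genes. Marker sums moved between the same groups: 5 endothelial markers summed to 1299.6 to 1369.5 CPM at ZT10 and 1484 to 1644 at ZT22, with 1 of 5 called lower. The 6 fibroblast markers summed to 1431 to 1559 and 1366 to 1411, with 1 of 6 called higher. Macrophage marker sums overlapped, at 289 to 328 and 262 to 294, with 2 of 6 called higher. Of 5 atrial and 5 smooth muscle and pericyte markers, 1 each was called higher. Their part in the members' differences was not tested. In bulk hearts, fewer cells of a type and less RNA per cell cannot be told apart, here or in any comparison that follows. Each library is a separate mouse, and the comparisons below that use the same group share its mice.

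Srxn1 stood at 42.3, 43.8 and 36.2 normalized CPM in the 3 young hearts at ZT10 and at 55.6, 92.3 and 63.1 at ZT22. All 3 ZT22 values lay above all 3 ZT10 values, and replicate 2 at ZT22 stood far above the others. The log2 difference, ZT10 minus ZT22, was -0.80 (SE 0.13, adjusted p = 0.000244), and it was -0.54 without that library and still called. Txnrd1 read 120.2, 121 and 129 normalized CPM at ZT10 and 145, 171 and 149.6 at ZT22, without overlap (log2 difference -0.33, SE 0.065, adjusted p = 0.00113).

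Among the members higher in the light phase, Idh1, the cytosolic and peroxisomal NADP-dependent isocitrate dehydrogenase, read 116, 132 and 129.8 normalized CPM at ZT10 and 98.5, 80.2 and 92.8 at ZT22 (log2 difference 0.48, SE 0.096, adjusted p = 0.00155). Nqo1, the quinone reductase that serves as the reference NRF2 target, read 104, 101.2 and 105 at ZT10 and 88.4, 77.2 and 72.7 at ZT22 (log2 difference 0.39, SE 0.093, adjusted p = 0.00673). The groups did not overlap for either gene. Tkt, the transketolase of the pentose phosphate pathway, read 68.5, 64.9 and 66.0 at ZT10 and 49.1, 58.4 and 56.4 at ZT22 (log2 difference 0.28, SE 0.079, adjusted p = 0.0211). The calls of Tkt, Keap1 (log2 difference 0.20, adjusted p = 0.0216) and Prdx4 (0.27, adjusted p = 0.0438) were lost in 3, 4 and 5 of the 6 fits that left out 1 library, with adjusted p up to 0.099 without ZT22 replicate 1 for Tkt, 0.112 without ZT10 replicate 2 for Keap1 and 0.275 without ZT22 replicate 2 for Prdx4, whereas those of Srxn1, Txnrd1, Idh1 and Nqo1 were kept in all 6. DESeq2 likewise did not call Tkt, Keap1 or Prdx4 (adjusted p = 0.0576, 0.0711 and 0.148).

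Nfe2l2 mRNA itself read 152, 148 and 152 normalized CPM at ZT10 and 124, 148 and 149 at ZT22 in young hearts. The groups overlapped, with replicate 1 at ZT22 the low value (log2 difference 0.10, SE 0.064, adjusted p = 0.345). Mt1, a metallothionein that binds zinc and copper, read 69.8, 72.8 and 73.6 at ZT10 and 60.8, 67.7 and 76.0 at ZT22, and overlapped as well (log2 difference 0.08, adjusted p = 0.689). Mt2 rested on 9 to 38 counts per heart library, and 73.47% of its exonic bases are shared with a gene on the opposite strand. It read 4.72, 4.03 and 3.33 at ZT10 and 2.02, 6.14 and 4.81 at ZT22, and Nnt read 6.88, 8.62 and 8.22 at ZT10 and 6.06, 5.64 and 6.47 at ZT22. Neither passed the test (adjusted p = 0.837 and 0.197). Mt2 overlapped between the phases, while Nnt did not and was higher at ZT10.

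**Figure D2:**
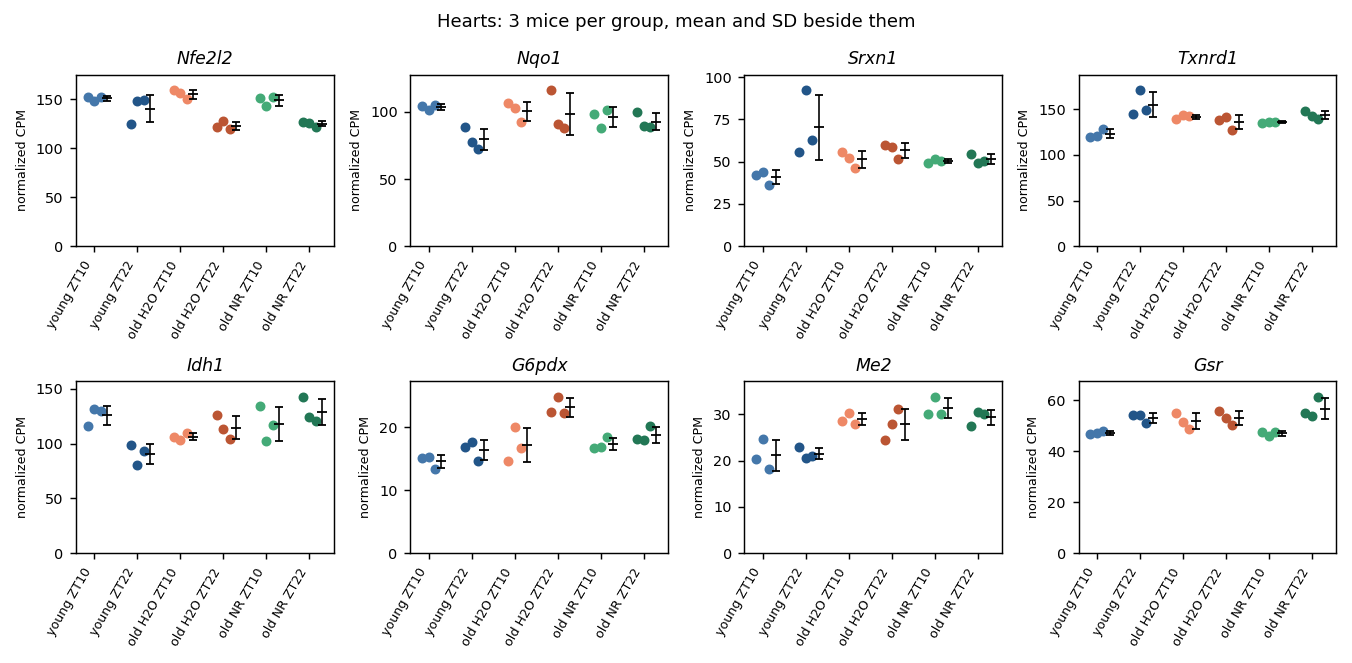
Normalized CPM (linear axis from 0) of 8 members in the 3 mice of each of the 6 heart groups, with the mean and SD beside the points. Srxn1 is lowest in young hearts at ZT10 and its highest value is 1 young ZT22 mouse at 92.3, while Nfe2l2 is lower at ZT22 than at ZT10 in both old groups.

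In old H2O hearts other members were called between the light and dark phases. Nfe2l2 was higher at ZT10 and G6pdx lower. The test called 2 of 41 members, where 4.20% of all genes were called, and the median log2 difference was 0.12 over the members and 0.00 over all genes. Nfe2l2 read 159, 156 and 149.9 normalized CPM at ZT10 and 122, 128 and 120.0 at ZT22, with no overlap (log2 difference 0.33, SE 0.064, adjusted p = 0.00336), and was called in all 6 fits that left out 1 library. G6pdx read 14.7, 20.04 and 16.7 at ZT10 and 22.4, 24.8 and 22.2 at ZT22, also without overlap (-0.43, SE 0.12, adjusted p = 0.0433). It rested on 71 to 176 counts per library, and its call was lost in 4 of 6 leave-out fits (adjusted p up to 0.193, without ZT10 replicate 1), by DESeq2 (adjusted p = 0.122) and with the library-size term (adjusted p = 0.0502), under which Gss (0.33, adjusted p = 0.0279) and Txn2 (0.17, adjusted p = 0.0303) were called higher at ZT10. Macrophage markers, 6 in all, summed to 331 to 367 CPM at ZT10 and 374 to 413 CPM at ZT22, with 1 of 6 called lower at ZT10. Their part in the members' differences was not tested.

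Members called between the phases in young hearts read as follows in old H2O hearts. Srxn1 was at 55.8, 52.0 and 46.3 at ZT10 and at 59.9, 58.6 and 51.6 at ZT22, Txnrd1 at 139, 144 and 142 against 139, 142 and 127, and Idh1 at 106, 103 and 109.8 against 126, 113 and 105. All 3 overlapped between the phases, and their log2 differences of -0.13, 0.06 and -0.10 did not pass the test (adjusted p = 0.64, 0.646 and 0.64). Nqo1 read 106, 103 and 92.6 at ZT10 and 116, 90.8 and 88.2 at ZT22 (log2 difference 0.05, adjusted p = 0.811). Mt1 read 70.4, 63.5 and 69.7 against 64.4, 59.6 and 56.0, Mt2 2.89, 3.91 and 3.50 against 4.53, 3.22 and 4.42, and Nnt 7.44, 5.43 and 5.35 against 9.05, 7.89 and 8.72, none of them called (adjusted p = 0.329, 0.769 and 0.15). Mt1 and Mt2 overlapped between the phases, while Nnt did not and was lower at ZT10, the reverse of its direction in young hearts.

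Whether the phase difference itself changed with age was tested as an interaction, which is the phase difference in old H2O hearts minus that in young hearts. It was called for 4 of 41 members, where 6.89% of all genes were called. Of 6 macrophage markers 3 had a called interaction, all negative. The same held for 1 of 6 fibroblast, 1 of 5 smooth muscle and pericyte and 1 of 3 tested lymphocyte markers. The part of such cells in the members' interactions was not tested. Srxn1 had an interaction of 0.66 on the log2 scale (SE 0.19, adjusted p = 0.0329) and Txnrd1 of 0.40 (SE 0.091, adjusted p = 0.0103): both were lower at ZT10 in young hearts and close to equal in the old. Idh1 went the other way, at -0.58 (SE 0.14, adjusted p = 0.0119). Nnt was called at -0.88 (SE 0.27, adjusted p = 0.0478) on the few counts described above, and the call was lost in 10 of 12 leave-out fits (adjusted p up to 0.117, without young ZT10 replicate 2) and by DESeq2 (adjusted p = 0.135). Txnrd1 and Idh1 were called in all 12. Srxn1 was lost in 5 of 12, with adjusted p up to 0.0932 without old ZT10 replicate 1, and without replicate 2 of the young hearts at ZT22 its interaction was 0.41 (adjusted p = 0.0736). The interactions of Nfe2l2 (0.23, adjusted p = 0.126) and Nqo1 (-0.34, adjusted p = 0.127) did not pass, although with the library-size term Nqo1 was called at -0.35 (adjusted p = 0.0212), as were Gss (0.42, adjusted p = 0.033) and Txn2 (0.21, adjusted p = 0.0451).

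In old hearts on NR, 2 of 41 members were called between the phases, where 5.37% of all genes were called. The median log2 difference was -0.01 over the members and over all genes. Atrial markers summed to 112 to 130 CPM at ZT10 and 160 to 225 at ZT22, with none called. T and B lymphocyte markers summed to 14.5 to 16.6 and 18.3 to 28.2, with 1 of 3 tested called lower. Of 6 fibroblast markers 1 was called lower, and of 5 smooth muscle and pericyte markers 1 higher. The part of such cells in the members' differences between the phases was not tested. Gsr, the glutathione reductase that spends NADPH, read 47.7, 45.8 and 47.5 normalized CPM at ZT10 and 54.9, 53.6 and 61.2 at ZT22 (log2 difference -0.27, SE 0.068, adjusted p = 0.0187). Nfe2l2 read 151, 143 and 152 at ZT10 and 127, 126 and 122 at ZT22 (0.25, SE 0.063, adjusted p = 0.019). Neither gene overlapped between the phases, so in both old groups all Nfe2l2 values at ZT10 stood above all those at ZT22. Both calls were lost in 4 of 6 leave-out fits, with adjusted p up to 0.138 for Gsr and 0.085 for Nfe2l2, in each case without ZT22 replicate 3. DESeq2 did not call Gsr (adjusted p = 0.0923), and Nfe2l2 kept a log2 difference between 0.24 and 0.28.

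The other members with fixed per-mouse values did not separate the phases in old NR hearts. Nqo1 read 98.6, 87.9 and 102 at ZT10 and 99.8, 89.3 and 89.0 at ZT22. Mt1 read 60.9, 64.3 and 68.3 against 76.7, 60.8 and 54.8. Mt2, at 3.04, 5.49 and 4.06 against 2.14, 3.58 and 2.11, and Nnt, at 7.14, 6.35 and 4.90 against 8.79, 7.02 and 8.01, also overlapped, and adjusted p-values of these 4 genes were 0.29 or more.

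Old H2O hearts were compared with young hearts at each time. At ZT10, 1 of 41 members was called, where 5.87% of all genes were called, and the median log2 difference was 0.03 over the members and 0.00 over all genes. Smooth muscle and pericyte markers summed to 911 to 1003 CPM in old and 1013 to 1119 in young hearts, with 3 of 5 called lower. Macrophage markers summed to 331 to 367 against 289 to 328, with 1 of 6 called higher. Red blood cell markers summed to 152 to 179 against 93.2 to 141, with 1 of 6 called higher. Of 6 fibroblast and 5 endothelial markers, 1 each was called lower. The part of such cells in the members' values was not tested. Me2, the mitochondrial NAD-dependent malic enzyme, read 28.5, 30.4 and 28.0 normalized CPM in old hearts and 20.5, 24.8 and 18.2 in young hearts, without overlap (log2 difference 0.45, SE 0.11, adjusted p = 0.0212). Nqo1 and Nfe2l2 overlapped between the ages at ZT10, with log2 differences of -0.04 and 0.04 (adjusted p = 0.87 and 0.796). The call of Me2 was lost in 4 of 6 leave-out fits (adjusted p up to 0.117, without young replicate 3). With the library-size term Txnrd1 (0.20, adjusted p = 0.0369) and Idh1 (-0.22, adjusted p = 0.0479) were called beside it. EdgeR with only these groups in the fit also called Txnrd1 (0.20, adjusted p = 0.022) and Idh1 (-0.24, adjusted p = 0.0178). That fit called Srxn1 as well (0.33, adjusted p = 0.0311), which did not overlap between the ages.

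At ZT22, 6 of 41 members were called between old and young, where 14.1% of all genes were called. Of these, 4 were higher in old hearts, where 7.96% of all genes were higher, and 2 lower, where 6.17% were. Members had a median log2 difference of -0.05 and all genes of 0.00. The members higher in old hearts were 3 of NADPH supply or related malate oxidation, G6pdx, Me2 and Idh1, and Nqo1, which spends NADPH. G6pdx read 22.4, 24.8 and 22.2 normalized CPM in old hearts and 16.8, 17.6 and 14.6 in young hearts (log2 difference 0.50, SE 0.12, adjusted p = 0.00732), and it was the only one of the 6 called in all leave-out fits. Me2 read 24.5, 27.9 and 31.2 against 22.9, 20.6 and 21.1 (0.40, SE 0.11, adjusted p = 0.0199), and Idh1 126, 113 and 105 against 98.5, 80.2 and 92.8 (0.33, SE 0.096, adjusted p = 0.0246). None of these 3 overlapped. Nqo1 was called too (0.29, SE 0.093, adjusted p = 0.0377), but its lowest old value, 88.2, lay just under the highest young value, 88.4, and old replicate 1 stood well above the others at 116.

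The members lower in old hearts at ZT22 were Txnrd1, at 139, 142 and 127 against 145, 171 and 149.6 (log2 difference -0.20, SE 0.064, adjusted p = 0.0421), and Nfe2l2, at 122, 128 and 120.0 against 124, 148 and 149 (-0.19, SE 0.064, adjusted p = 0.048). Txnrd1 did not overlap between the ages, while Nfe2l2 did, through young replicate 1 at 124. Nnt, on its few counts, was not called but did not overlap either, at 9.05, 7.89 and 8.72 in old hearts against 6.06, 5.64 and 6.47 in young hearts. Leaving out 1 library ended the calls of Nqo1, Me2 and Idh1 in 3 of 6 fits each and those of Txnrd1 and Nfe2l2 in 5 of 6, with adjusted p up to 0.253 for Txnrd1 without young replicate 2 and up to 0.202 for Nfe2l2 without young replicate 3. DESeq2 called only G6pdx and Idh1 of the 6, and gave Nfe2l2, Nqo1, Txnrd1 and Me2 adjusted p-values of 0.0835, 0.0559, 0.079 and 0.0503. With the library-size term Sod1, the cytosolic superoxide dismutase, was called as well (-0.14, adjusted p = 0.0315). Without old replicate 1, the shallowest library, Nqo1 differed by 0.19 (adjusted p = 0.141) and Idh1 by 0.28 (adjusted p = 0.0685). The summed level of 6 macrophage markers was 374 to 413 CPM in old H2O hearts at ZT22 and 262 to 294 in young hearts, with 5 of 6 markers called higher. In NR hearts at ZT22 it was 272 to 291. Endothelial markers moved the other way, at 1265 to 1465 CPM in old H2O and 1484 to 1644 in young hearts, with 2 of 5 called lower. The part of such cells in the members' differences was not tested.

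NR in old hearts was compared with H2O at each time. At ZT10, 0 of 41 members passed edgeR's test at an adjusted p under 0.05, where 0.285% of all genes did. Those 44 genes fell to 0 without H2O replicate 3, NR replicate 1 or NR replicate 3, and numbered 234 with only these groups in the fit. At an unadjusted p under 0.05 there were 3 members, Gpx3, Gpx1 and Prdx4, where 10.1% of all genes passed. Gpx3 read 175, 150.2 and 182 normalized CPM in NR hearts and 245, 215 and 250.3 in H2O hearts, with no overlap (log2 difference -0.49, SE 0.12, adjusted p = 0.083). DESeq2 called Gpx3 and no other member (adjusted p = 0.0308), as did edgeR with only these groups in the fit (adjusted p = 0.00181). Atrial markers also differed between these groups: 5 of them summed to 112 to 130.1 CPM in NR hearts and 388 to 505 CPM in H2O hearts at ZT10, with 3 of 5 called lower. Fibroblast markers summed to 974 to 1128 CPM against 1241 to 1424, with 1 of 6 called lower. The part of either in the value of Gpx3 was not tested. In young hearts at ZT10, Gpx3 was at 247, 166 and 166, and the atrial markers there summed to between 154 and 744. At ZT22, Gpx3 was at 201, 211 and 200.2 in young hearts, where the atrial markers summed to between 126 and 260. In old H2O hearts at ZT22 it was at 192, 213 and 182, with atrial sums of 123 to 530. In old NR hearts at ZT22 it was at 204, 173 and 169, with atrial sums of 160 to 225.

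At ZT22, 0 of 41 members passed between NR and H2O with edgeR or with DESeq2, where edgeR called 0.350% of all genes. At an unadjusted p under 0.05 there was 1 member, where 11.2% of all genes passed: G6pdx read 18.06, 18.02 and 20.2 in NR hearts and 22.4, 24.8 and 22.2 in H2O hearts (log2 difference -0.30, SE 0.11, adjusted p = 0.304). The 3 values did not overlap with those of H2O hearts and lay above the highest young value of 17.6. Between the same groups, 6 macrophage markers summed to 272 to 291 CPM in NR and 374 to 413 CPM in H2O hearts, with 3 of 6 called lower. Of 5 smooth muscle and pericyte markers 2 were called lower, and of 6 fibroblast markers 1. The part of such cells in the value of G6pdx was not tested. The interaction of NR with time was called for 0 of 41 members by either tool, where edgeR called 0.343% of all genes, and 3 members, Gsr, Gpx3 and Gstm5, had an unadjusted p under 0.05, where 10.3% of all genes did. Nqo1 differed between NR and H2O by -0.07 at both times (adjusted p = 0.832 and 0.869) and Nfe2l2 by -0.06 and 0.02 (adjusted p = 0.765 and 0.973). Mt1, Mt2 and Nnt overlapped between NR and H2O at both times.

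**Figure D3:**
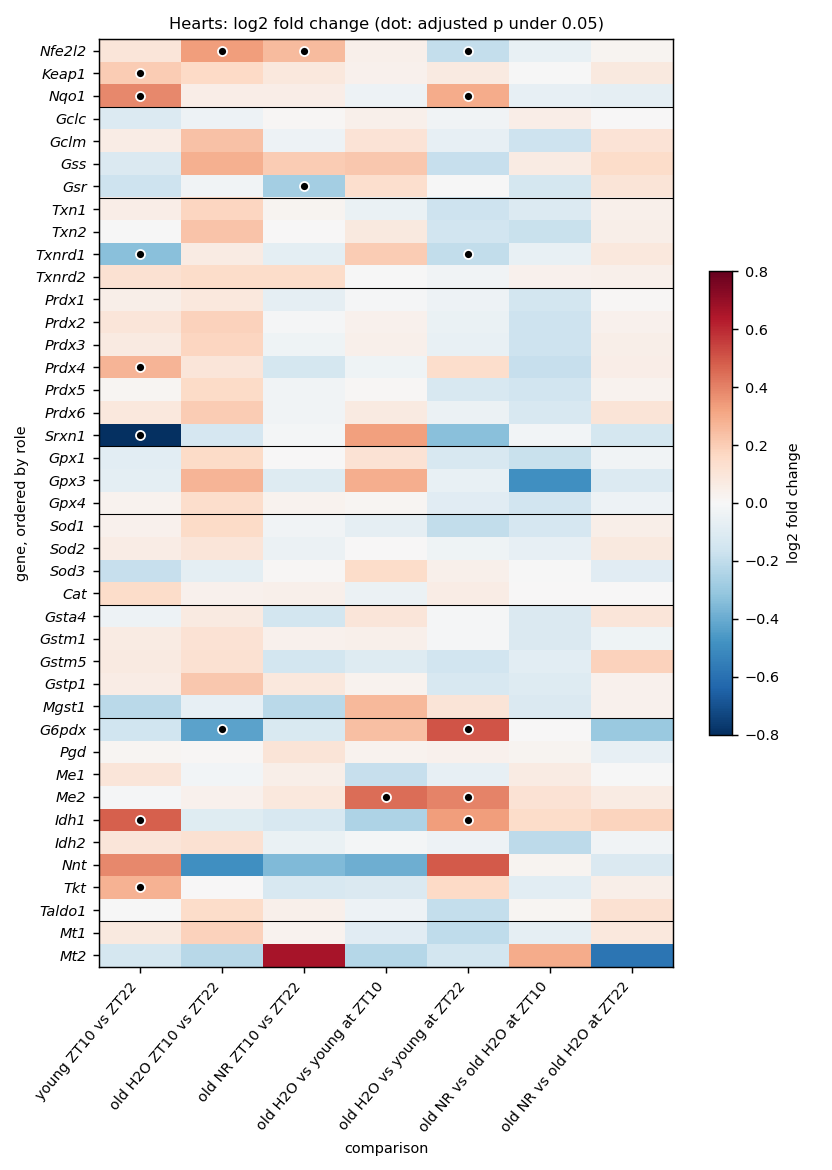
Log2 fold change of each of the 41 members (rows, ordered by role) in the 7 heart comparisons (columns, first group over the second), with a dot where the adjusted p was under 0.05. The dots number 7, 2, 2, 1, 6, 0 and 0 from left to right, and columns that use the same group share its mice.

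Over the 7 comparisons of heart groups, edgeR called 11 of 41 members at least once, where 28.2% of all genes were called at least once, and 30 members not at all. Whole roles held no member called by this test: the 3 glutathione peroxidases, the 4 superoxide dismutases and catalase, the 5 glutathione transferases and the 2 metallothioneins. The exceptions under other settings were Gpx3, called between NR and H2O at ZT10 as given above, and Sod1, called between the ages at ZT22 with the library-size term. The superoxide dismutases and catalase stayed between -0.19 and 0.15 on the log2 scale and the glutathione transferases between -0.22 and 0.26 in all 7. The 5 peroxiredoxins other than Prdx4 stayed between -0.16 and 0.20, and Gclc, Gclm and Gss, which build glutathione, between -0.18 and 0.28. In each comparison of heart groups the members' share of calls lay close to or below that of all genes. A p that misses the threshold does not show equal levels, and the smallest log2 difference called among the members was -0.19.

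Other genes of these pathways were taken from lists of NRF2 partners and targets, glutathione and cystine handling, glutathione transferases, thioredoxin partners, other NADPH supply, metal response and glucocorticoid-induced genes. Of 19 NRF2 partners and targets, 4 were called between the phases in young hearts (3 higher at ZT10), where 14.4% of all genes were, among them Ephx1, a microsomal epoxide hydrolase, at 0.83 (adjusted p = 3.14e-08). In old H2O hearts 2 of 19 were called, both higher, where 4.20% of all genes were called, and in old NR hearts 2, both higher, where 5.37% were, with Ephx1 at 0.48 in the latter. Of 6 glucocorticoid-induced genes, 4 were called in young hearts, 3 in old H2O hearts and 4 in old NR hearts. Per1, a clock gene that glucocorticoids also induce, was higher at ZT10 by 1.99 in young and 1.35 in old H2O hearts (adjusted p = 1.35e-09 and 1.12e-06). Cdkn1a, a cell cycle inhibitor, differed by -2.43 in young and -1.15 in old NR hearts (adjusted p = 1.44e-07 and 0.00174). Tsc22d3 was higher by 0.65 in old H2O hearts and Gstt2, a glutathione transferase, by 0.79 in old NR hearts (adjusted p = 1.88e-05 and 7.87e-05). Among 15 other genes of NADPH supply, 5 were called in young hearts, with Mthfd2 lower at ZT10 at -1.01, and 1 in each of the old groups.

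Between the ages, 2 of 19 NRF2 partners and targets were called at ZT10, where 5.87% of all genes were, and 5 of 19 at ZT22, where 14.1% were. At ZT10 Maff, a small MAF partner, was higher in old hearts by 0.82 (adjusted p = 0.00676) and Abcc1, an exporter of glutathione conjugates, lower at -0.46 (adjusted p = 0.000551), while at ZT22 Ephx1 and Abcc1 were higher by 0.35 and 0.37 and Mafg lower at -0.38 (adjusted p = 0.00205, 0.00241 and 0.00119). Of 13 glutathione transferases tested, 2 were called higher in old hearts at each time, with Gstm2 at 0.41 at ZT10. Per1 was lower in old hearts at ZT10 at -0.46, and Slc39a14, a zinc and iron importer, at ZT22 at -0.35. The interaction of age with time was called for Maff (1.49), Cdkn1a (1.76), Abcc1 (-0.84) and H6pd (-0.39), the last a source of NADPH in the endoplasmic reticulum. No gene of any of these lists was called between NR and H2O hearts at either time.

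In HL-1 cells, the first comparison asked what FK866 changed. Nqo1, Srxn1, Txnrd1, Cat and Gclc rose, and the peroxiredoxins Prdx5 and Prdx2 fell together with Idh2, Gstp1, Mgst1 and Me2. Under the study's limits of an adjusted p under 0.01 and a change over 1.5-fold, 3 of 41 members were called (1 higher, 2 lower), where 4.59% of all 14760 genes tested were called. Without the limit on fold there were 11, where 13.9% of all genes were called. Of these, 5 were higher, where 6.19% of all genes were, and 6 lower, where 7.68% were. The median log2 difference was -0.06 over the members and 0.02 over all genes. The members' share lay above that of all genes in both directions, a description for which no test was made. The methods define replicates of cell experiments as separately cultured wells, in general from a single experiment, so the p-values for HL-1 cells measure the spread between wells, which may be technical.

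Nqo1 read 37.5, 35.4 and 35.9 normalized CPM in Ctrl and 66.5, 65.5 and 62.8 in FK (1.79-fold, log2 difference 0.84, SE 0.058, adjusted p = 2.57e-07). Srxn1 read 100.8, 100.5 and 111 in Ctrl and 144, 153 and 149.8 in FK (1.43-fold, 0.52, SE 0.074, adjusted p = 0.000145). Txnrd1 read 528, 487 and 489 in Ctrl and 641, 629 and 686 in FK (1.30-fold, 0.38, SE 0.060, adjusted p = 0.000352). In all 3 genes every FK culture stood above every Ctrl culture, and the calls were kept in all 6 leave-out fits. Cat read 81.2, 86.2 and 89.4 in Ctrl and 111, 110.5 and 121 in FK (0.41, SE 0.064, adjusted p = 0.000296), and Gclc, the catalytic subunit of the enzyme that limits glutathione synthesis, 91.5, 82.9 and 81.0 against 108, 99.2 and 114 (0.33, SE 0.078, adjusted p = 0.00608). The call of Cat was kept in all leave-out fits and that of Gclc lost in 4 of 6 (adjusted p up to 0.0327, without Ctrl replicate 2).

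Nfe2l2 mRNA read 196, 196 and 213 normalized CPM in Ctrl and 214, 205 and 217 in FK, and overlapped (log2 difference 0.07, SE 0.053, adjusted p = 0.37). NRF2 is controlled largely through the stability of the protein, which was not measured here.

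Prdx5, a peroxiredoxin of mitochondria, peroxisomes and cytosol, read 314, 307 and 345 normalized CPM in Ctrl and 176, 192 and 152 in FK (0.537-fold, log2 difference -0.90, SE 0.082, adjusted p = 2.82e-06). Prdx2, an abundant cytosolic peroxiredoxin, read 557, 603 and 675 in Ctrl and 405, 445 and 354 in FK (0.656-fold, -0.61, SE 0.082, adjusted p = 8.68e-05). The groups were far apart for both, and both calls were kept in all 6 leave-out fits. Of the exonic bases of Prdx5, 19.12% are shared with Trmt112 on the opposite strand, and of those of Prdx2, 11.48% with Rnaseh2a and Junb, and whether HL-1 counting used strand is not given in the sources used here. Idh2 read 98.2, 100.8 and 111 in Ctrl and 81.0, 85.8 and 73.6 in FK (-0.36, SE 0.066, adjusted p = 0.00106), a call kept in all leave-out fits and lost with only these groups in the fit (adjusted p = 0.0167). Gstp1 was called at -0.44 (adjusted p = 0.00457) although its groups overlapped, Mgst1, a membrane-bound glutathione transferase, at -0.33 (adjusted p = 0.00487) and Me2 at -0.24 (adjusted p = 0.00564), and each of these 3 calls was lost in 4 of 6 leave-out fits, with adjusted p up to 0.0293, 0.0286 and 0.0278.

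The metallothioneins and Nnt were not called with FK866. Mt1 read 260.2, 274 and 339 in Ctrl and 349, 398 and 309 in FK (log2 difference 0.27, adjusted p = 0.0504). Mt2, on 20 to 62 counts per library, read 0.799, 1.14 and 2.44 in Ctrl and 1.07, 1.84 and 1.02 in FK, and Nnt 0.999, 0.692 and 0.748 against 0.802, 0.686 and 1.62. All 3 overlapped between the groups.

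**Figure D4:**
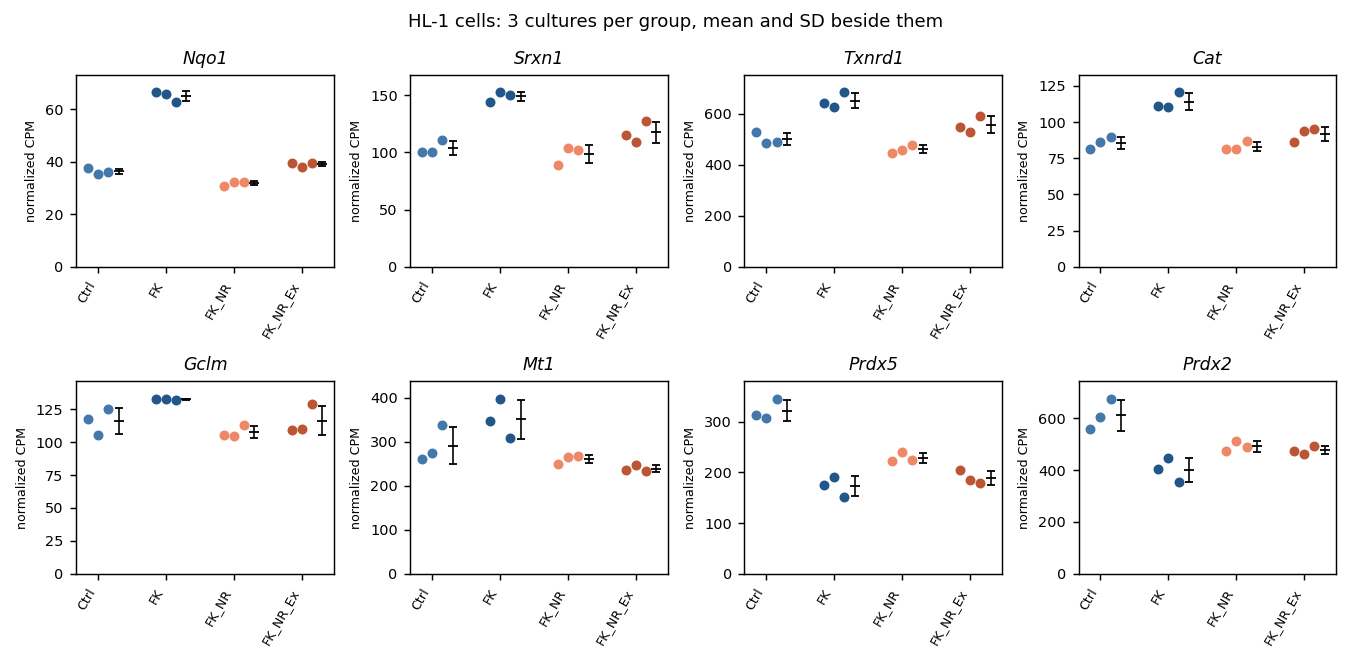
Normalized CPM (linear axis from 0) of 8 members in the 3 cultures of each HL-1 group, with the mean and SD beside the points. Nqo1 stands at 62.8 to 66.5 in FK and at 30.8 to 39.5 in the other groups, while Prdx5 is highest in Ctrl, at 307 to 345.

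Adding NR to FK866 was asked about next, by comparing FK_NR with FK. Of 41 members, 2 were called under both limits (0 higher, 2 lower), where 4.81% of all genes were called, and 12 without the limit on fold, where 15.3% were. Of the 12, 11 were lower in FK_NR, where 7.97% of all genes were lower, and 1 higher, where 7.33% were. Over the members the log2 difference had a median of -0.18, and over all genes of 0.01. The FK cultures are the same as in the comparison above, so these comparisons are not independent of each other.

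Nqo1 read 30.8, 32.1 and 32.4 normalized CPM in FK_NR, below every FK culture (0.490-fold, log2 difference -1.03, SE 0.059, adjusted p = 3.33e-08). Srxn1 read 89.5, 104 and 102 (0.661-fold, -0.60, SE 0.074, adjusted p = 4.56e-05) and Txnrd1 446, 460.0 and 478 (0.708-fold, -0.50, SE 0.060, adjusted p = 3.66e-05). None of the 3 overlapped with FK. Cat read 81.4, 81.1 and 86.8 (-0.46, SE 0.064, adjusted p = 0.000128), and Txn2, the mitochondrial thioredoxin, 95.7, 99.8 and 103 against 139.9, 146 and 122 in FK (-0.45, SE 0.085, adjusted p = 0.00132). These 5 calls were kept in all 6 leave-out fits.

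The other members lower in FK_NR than in FK lay between -0.30 and -0.43. They were Prdx3 (-0.33, adjusted p = 0.00147), Sod2, the mitochondrial superoxide dismutase (-0.32, adjusted p = 0.00237), Gss (-0.40, adjusted p = 0.00311), Mt1 (-0.43, adjusted p = 0.00424), Gclm, the modifier subunit of the enzyme that limits glutathione synthesis (-0.30, adjusted p = 0.00818), and Gsta4, a glutathione transferase that acts on lipid aldehydes (-0.38, adjusted p = 0.00916). The calls of Prdx3, Sod2, Gss, Mt1, Gsta4 and Gclm were lost in 1, 3, 4, 5, 5 and 6 of 6 leave-out fits, with adjusted p up to 0.0112, 0.0217, 0.0216, 0.0246, 0.0565 and 0.045. Mt1 read 250.2, 266 and 267 in FK_NR, below every FK culture, and Mt2 1.30, 1.09 and 1.55, overlapping with FK. Prdx5 was the 1 member called higher, at 223, 239.9 and 224 in FK_NR (0.40, SE 0.082, adjusted p = 0.00219), a call lost in 2 of 6 leave-out fits (adjusted p = 0.0105 without FK replicate 1 and 0.0122 without FK_NR replicate 2). Prdx2, at 472, 511 and 491, was also above every FK culture, and its log2 difference of 0.29 had an adjusted p of 0.0155. Nfe2l2, at 199, 201 and 202, lay below every FK culture with a log2 difference of -0.08 (adjusted p = 0.273), and Nnt read 1.21, 0.568 and 0.954.

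FK_NR was also compared with Ctrl, the untreated cultures. Under both limits 0 of 41 members were called by edgeR or DESeq2, where edgeR called 0.901% of all genes. Without the limit on fold, edgeR called 3, where 2.66% of all genes were called. They were Prdx5 (-0.49, adjusted p = 0.00729), Gstp1 (-0.48, adjusted p = 0.00942) and Idh2 (-0.33, adjusted p = 0.00942), all lower in FK_NR. DESeq2 called 14, and each of edgeR's 3 calls was lost in 5 of 6 leave-out fits, with adjusted p up to 0.0471, 0.0494 and 0.0494 without FK_NR replicate 1. The whole comparison was as unsteady: the 392 genes called at any fold fell to 0 in those same 5 fits and rose to 1238 without Ctrl replicate 1. At an unadjusted p under 0.05 there were 24 members, where 39.3% of all genes passed. The median log2 difference was -0.22 over the members and 0.00 over all genes. Prdx5 in FK_NR, at 223 to 239.9, thus lay above FK, at 152 to 192, and below Ctrl, at 307 to 345, with no overlap among the 3 groups. Idh2, at 79.5, 82.1 and 83.8, stayed at the FK level, and its log2 difference from FK was not called. Nqo1 was lower in FK_NR than in every Ctrl culture (-0.19, adjusted p = 0.0327) and not called.

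Ex527 was added to FK866 and NR to ask what depended on SIRT1. Against FK_NR, 0 of 41 members were called under both limits by either tool, where edgeR called 0.596% of all genes, and 1 without the limit on fold, where 2.21% were. At an unadjusted p under 0.05 there were 17 members, where 23.2% of all genes passed. The median log2 difference was 0.12 over the members and 0.00 over all genes. The 1 member was Nqo1, at 39.4, 38.1 and 39.5 normalized CPM in FK_NR_Ex, above every FK_NR culture (1.23-fold, 0.29, SE 0.059, adjusted p = 0.00856), and the call was lost in each of the 6 leave-out fits, where the log2 difference lay between 0.27 and 0.31 (adjusted p up to 0.0535, without FK_NR replicate 1). Srxn1, at 115, 109 and 128, and Txnrd1, at 548, 529 and 593, also lay above every FK_NR culture and were not called (0.25 and 0.27, adjusted p = 0.0515 and 0.0148), although DESeq2 called Txnrd1 (adjusted p = 0.00104).

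Against FK, 1 of 41 members was called in FK_NR_Ex under both limits, where 1.27% of all genes were called, and 5 without the limit on fold, all lower, where 4.75% were. The median log2 difference was -0.08 over the members and 0.01 over all genes. Nqo1 was lower at -0.74 (0.600-fold, SE 0.058, adjusted p = 5.68e-06), in all 6 leave-out fits. Mt1 read 235, 248 and 234 against 349, 398 and 309 in FK (-0.56, SE 0.096, adjusted p = 0.00195), and Cat 86.0, 93.7 and 94.9 against 111, 110.5 and 121 (-0.32, SE 0.064, adjusted p = 0.00525). Srxn1 (-0.34, adjusted p = 0.00752) and Gsta4 (-0.47, adjusted p = 0.00652) were lower too. Mt1 lost its call in 1 of 6 leave-out fits (adjusted p = 0.014, without FK_NR_Ex replicate 1), Cat in 4, and Srxn1 and Gsta4 in 5 each, with adjusted p up to 0.0365, 0.0485 and 0.0436. Nfe2l2, at 204, 200.3 and 209, Mt2, at 2.18, 1.57 and 1.33, and Nnt, at 0.775, 1.06 and 0.791, were not called in either comparison with FK_NR_Ex.

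**Figure D5:**
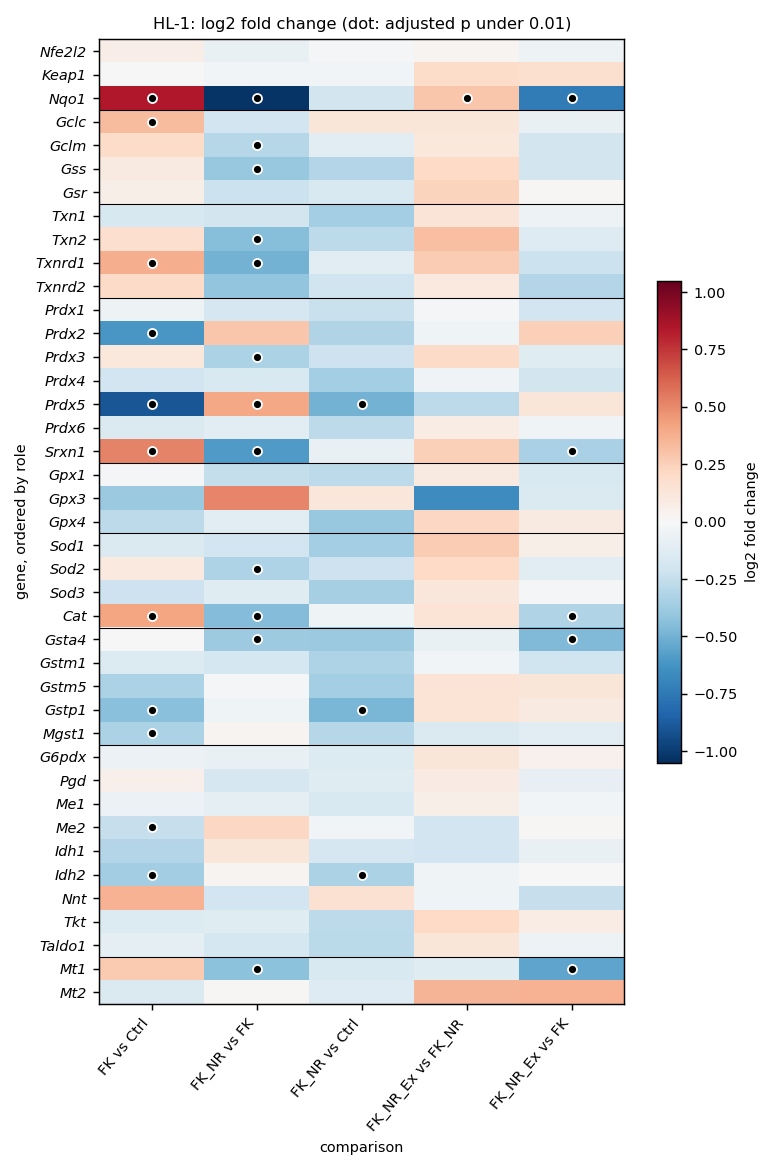
Log2 fold change of each of the 41 members (rows, ordered by role) in the 5 HL-1 comparisons (columns, first group over the second), with a dot where the adjusted p was under 0.01 at any fold. The dots number 11, 12, 3, 1 and 5 from left to right, and Nqo1 has a dot in 4 of the 5 columns.

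Over the 5 HL-1 comparisons, edgeR called 18 of 41 members at least once without the limit on fold, where 23.4% of all genes were called at least once, and 23 members not at all. The members it did not call included Nfe2l2 and Keap1, the regulator and its repressor, whose log2 differences stayed between -0.08 and 0.19, and 7 of 9 genes of NADPH supply, between -0.30 and 0.36 with Nnt at the upper end. Of these, Idh1 was called by DESeq2 in FK against Ctrl (adjusted p = 0.00524), and Tkt and Taldo1 in FK_NR against Ctrl (adjusted p = 0.00222 and 0.00704). The 3 glutathione peroxidases were not called by edgeR either, though DESeq2 called Gpx4 in FK_NR against Ctrl (-0.40, adjusted p = 0.000908) and Gpx3 ran from -0.66 to 0.51 on its 5 to 18 counts. Fibroblast marker sums moved along the same groups: they were 3780 to 4142 CPM in Ctrl, 2543 to 2683 in FK, 3769 to 3818 in FK_NR and 3306 to 3426 in FK_NR_Ex. Under both limits, 3 of 5 tested fibroblast markers were called lower in FK than in Ctrl, where 4.59% of all genes were called. Likewise under both limits, 3 of these markers were called higher in FK_NR than in FK, where 4.81% of all genes were called. Their part in the members' values was not tested.

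In the same lists of neighbouring genes, 8 of 19 NRF2 partners and targets were called with FK866 against Ctrl at any fold, 6 higher and 2 lower, where 13.9% of all genes were called, and 10 with FK_NR against FK, 2 higher and 8 lower, where 15.3% were. Mafk, a small MAF partner of NRF2, differed by 0.67 on the log2 scale with FK866 and by -0.79 when NR was added (adjusted p = 3.05e-05 and 8.67e-06). Of 17 thioredoxin partners and related redox genes, 6 were called with FK866 at any fold, 2 higher and 4 lower. Sesn1, a stress-induced sestrin, was lower at -1.06 (adjusted p = 2.57e-07) and Selenop, the selenium carrier selenoprotein P, at -0.87 (adjusted p = 1.31e-05), and in FK_NR against FK they were higher by 0.91 and 0.80 (adjusted p = 1.04e-06 and 2.91e-05). Gsto1, an omega-class glutathione transferase, was lower in FK_NR than in FK at -0.84 (adjusted p = 6.08e-06), and Per1 was higher with FK866 by 0.83 (adjusted p = 5.17e-05). Of 15 genes of glutathione and cystine handling tested, 2 were higher with FK866 and 4 lower in FK_NR than in FK. In FK_NR_Ex against FK_NR, where 2.21% of all genes were called at any fold, 3 were higher. Among the last was Chac1, which degrades glutathione, at 0.95 (adjusted p = 2.57e-05), and Sesn2 was higher by 0.64 and Selenop lower at -0.95 in the same comparison (adjusted p = 0.000267 and 3.80e-05). In FK_NR_Ex against FK, Txnip, an inhibitor of thioredoxin, was lower at -0.75 and Slc39a8, a metal importer, at -0.89 (adjusted p = 7.04e-06 and 0.00192).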

How the data were processed

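The authors deposited raw read counts per gene for 18 hearts and 12 HL-1 libraries, and FPKM values, which are counts per length and depth, for HL-1 cells. Per the study's methods and processing notes, heart reads were single-end, trimmed with Trimmomatic 0.39, aligned to mm10 with STAR 2.7.10a, freed of duplicates with Picard 3.0.0 and of multi-mapping, ribosomal and mitochondrial reads, and counted with featureCounts 2.0.4, which dropped reads overlapping several genes. Removing duplicates can lower high counts most. HL-1 reads were poly(A)-selected and aligned with HISAT2 to mm10, and the strand setting is not given in the sources used here. Of the heart tables, that named as normalized held whole numbers with differing totals and was used as counts. The score values in the other, deposited by the authors under the name raw, were read here as counts scaled before they were deposited. That reading was inferred from their totals of 5228575 to 5767293, which lay closer together than those of the counts. Per the study's methods, the authors normalized raw heart counts with DESeq2 1.36.0, and whether this step made the score values is not stated. The score was used only for this check and for gene symbols.

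Here all genes were fitted per experiment with edgeR 4.0.16 (R 4.3.3, TMM, quasi-likelihood F-test, all groups in 1 fit, low counts filtered, 15443 and 14760 genes tested, Benjamini-Hochberg adjustment), and the scripts were tested on simulated data. Calls needed an adjusted p under 0.05 in hearts and under 0.01 with over 1.5-fold in HL-1 cells. Alternatives were DESeq2 1.42.0, no filter, only the compared groups, a replicate block, leaving out each library, no fold limit and, chosen after seeing the data, a term for log2 library size. Named genes were Nfe2l2, Nqo1, Nnt, Mt1 and Mt2, the members called with the smallest adjusted p in each direction, and up to 2 called list genes per direction. Gpx3, the other members named with values and the further Ephx1 and Per1 values were chosen after their values were seen. Normalized CPM are library-size-scaled counts with TMM factors, and SDs are over 3 samples. Each SE is that of a log2 difference, taken from the edgeR fit in which all groups share the estimate of spread. The members and lists were chosen with earlier results of these data known.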

Additional observations from a re-analysis of the deposited data

Results flagged for a closer look

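By edgeR's quasi-likelihood test, the interaction of age with time passed an adjusted p of 0.05 for 4 of 41 members, where 6.89% of all genes passed. This tests whether the phase difference in old H2O hearts was that of young hearts. It was 0.40 for Txnrd1 (SE 0.091, adjusted p = 0.0103), with phase differences of -0.33 in young and 0.06 in old hearts, and -0.58 for Idh1 (SE 0.14, adjusted p = 0.0119), with 0.48 and -0.10. Both held in all 12 fits that left out 1 library. It was 0.66 for Srxn1 (SE 0.19, adjusted p = 0.0329), with -0.80 and -0.13, but 5 of 12 such fits did not call it, and without young ZT22 replicate 2 it was 0.41 (adjusted p = 0.0736). For Nnt it was -0.88 (SE 0.27, adjusted p = 0.0478), with 0.39 and -0.49, on 26 to 69 counts per library and with overlapping gene models, and it was not called in 10 of 12 such fits or by DESeq2 (adjusted p = 0.135).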

How the results depend on the processing

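No alternative reversed a called member. Among the members called, alternatives with all libraries kept the call in 245 cases and lost it in 47, and leaving out 1 library kept it in 208 and lost it in 140. The sample titles number the replicates but state no pairing, and the main fits were unpaired. Correlations of same-numbered deviations ran from -0.068 to 0.181 in hearts and -0.479 to 0.167 in HL-1 cells. Some lay above 0.1, the limit set for this check, so these values do not decide whether same-numbered samples share a structure. With the number as a block, NR against H2O at ZT10 gave 1 called member in place of 0, and at any fold FK_NR against Ctrl gave 0 in place of 3 and FK_NR_Ex against FK_NR 0 in place of 1. Leaving out 1 library gave 4 to 6 members for young hearts, 1 to 3 for old H2O, 0 to 2 for old NR, 0 to 2 for age at ZT10, 1 to 7 for age at ZT22 and 2 to 5 for age by time. In HL-1 cells under both limits it gave 2 to 3 for FK against Ctrl, 1 to 2 for FK_NR against FK, 0 to 1 for FK_NR against Ctrl and 1 to 2 for FK_NR_Ex against FK, and at any fold 7 to 11, 6 to 13, 0 to 7 and 1 to 5, with 0 to 0 for FK_NR_Ex against FK_NR. DESeq2 called 4 in young hearts, 1 in old H2O, 1 in old NR, 2 for age at ZT22 and 1 for NR at ZT10, and at any fold 14 for FK_NR against Ctrl and 3 for FK_NR_Ex against FK_NR. With only the compared groups fitted there were 1 in old H2O, 1 in old NR, 4 for age at ZT10, 2 for age at ZT22, 1 for NR at ZT10 and 2 for age by time, and at any fold 7 for FK against Ctrl, 6 for FK_NR_Ex against FK_NR and 2 for FK_NR_Ex against FK. Without a filter there was 1 in old H2O, and at any fold 15 for FK_NR against Ctrl and 2 for FK_NR_Ex against FK_NR. Without the fold limit the HL-1 counts were 11, 12, 3, 1 and 5. A term for library size, chosen after seeing the data, gave 3 for age at ZT10 and 7 for age by time. Calls over all genes moved with the settings too. DESeq2 called 1760 genes in young hearts in place of 2219, 1500 for age at ZT22 in place of 2183, and at any fold 1980 for FK_NR against Ctrl in place of 392 and 745 for FK_NR_Ex against FK_NR in place of 326. With only the compared groups there were 1479 for age at ZT10 in place of 906, 1168 for age at ZT22, 977 for FK against Ctrl in place of 2047 and 809 for FK_NR_Ex against FK_NR. Without a filter there were 2475 for FK_NR against Ctrl, with the block 16, and with the library-size term 1420 for age at ZT10 and 1519 for age by time in place of 1064. The cause of these moves was not tested. Depth limits Nnt, Mt2 and, in HL-1 cells, Gpx3 and Sod3.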
